A study of Mus musculus with 2 samples.

Results

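The genes described here are 8 regulators and surface markers of the primitive and definitive endoderm: Gata4, Gata6, Sox7, Sox17, Foxa2, Pdgfra, Dab2 and Hnf4a. Their loci are candidates for occupancy and repression by Nanog in embryonic stem cells (ESCs), and every Nanog peak near them was collected. A peak was taken if its centre lay within 100 kb of the transcription start site (TSS) of one of the genes, or if one of the genes was the nearest protein-coding gene (nearest TSS, at most 1000 kb away). By these criteria 11 of 8737 distinct peaks belonged to the 8 genes, of 21755 protein-coding genes on chromosomes 1 to 19 and X. The peaks came from 1 anti-Nanog ChIP-seq sample of Bruce-4 cells, a mouse ESC line grown in serum medium with LIF, a cytokine that keeps ESCs undifferentiated. Chromatin was fixed with formaldehyde and precipitated with the rabbit monoclonal antibody D1G10. The 1 input sample, chromatin without immunoprecipitation from the same line, has no file used here. No sample has a replicate, and the list gives positions only, so no value below has a replicate error, no difference was tested, and neither peak height nor read depth can be taken from the list. No RNA data were used here, so whether a gene near a peak was silent or active in these cells cannot be read from the data.

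Nanog is a homeodomain transcription factor of the pluripotent epiblast. In the inner cell mass of the blastocyst, cells with Nanog become epiblast and cells with the zinc-finger factor Gata6 become primitive endoderm, the layer that gives rise to the extraembryonic yolk sac endoderm, and loss of Nanog in ESCs favours primitive endoderm. Gata6 is followed there by Sox17, Gata4 and Sox7, while Pdgfra marks the same cells on the surface. Definitive endoderm, which forms the gut, arises later from the epiblast at gastrulation and uses Sox17 and Foxa2 again.

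The sequences below are the central 235 bp (the smallest width in the list) of 8 of the 11 peaks, on the plus strand of mm10. They are shown because they are the closest peak of a gene within 100 kb or hold a GATA or forkhead consensus. These are letters read by the factors that several of these genes encode. Capitals mark every match to 1 of the 10 consensus motifs searched. The closest peak of Gata4 is not printed, because it lies in an untranslated region.
Sox7, 6.96 kb upstream, chr14:63936591-63936825: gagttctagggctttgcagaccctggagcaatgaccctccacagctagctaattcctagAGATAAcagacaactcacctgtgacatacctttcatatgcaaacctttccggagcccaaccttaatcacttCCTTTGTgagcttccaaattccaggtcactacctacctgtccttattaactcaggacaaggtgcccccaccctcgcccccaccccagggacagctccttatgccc
Sox17, 49.3 kb downstream, chr1:4447915-4448149: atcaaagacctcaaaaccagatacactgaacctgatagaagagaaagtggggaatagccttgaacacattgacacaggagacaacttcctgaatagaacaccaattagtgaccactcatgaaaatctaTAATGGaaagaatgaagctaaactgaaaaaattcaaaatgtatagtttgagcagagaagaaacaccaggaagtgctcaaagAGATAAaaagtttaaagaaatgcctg
Sox17, 74.9 kb downstream, chr1:4422385-4422619: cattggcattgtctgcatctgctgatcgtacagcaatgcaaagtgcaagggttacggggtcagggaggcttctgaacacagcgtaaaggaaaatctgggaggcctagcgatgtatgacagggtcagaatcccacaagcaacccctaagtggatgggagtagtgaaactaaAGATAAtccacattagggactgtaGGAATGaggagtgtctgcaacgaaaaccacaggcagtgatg
Foxa2, 140.5 kb downstream, chr2:147906357-147906591: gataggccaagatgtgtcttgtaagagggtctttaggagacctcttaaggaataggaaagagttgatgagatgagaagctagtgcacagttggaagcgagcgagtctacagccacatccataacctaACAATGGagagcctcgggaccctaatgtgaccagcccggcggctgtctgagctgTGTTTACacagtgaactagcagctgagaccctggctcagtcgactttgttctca
Foxa2, 141.3 kb downstream, chr2:147905525-147905759: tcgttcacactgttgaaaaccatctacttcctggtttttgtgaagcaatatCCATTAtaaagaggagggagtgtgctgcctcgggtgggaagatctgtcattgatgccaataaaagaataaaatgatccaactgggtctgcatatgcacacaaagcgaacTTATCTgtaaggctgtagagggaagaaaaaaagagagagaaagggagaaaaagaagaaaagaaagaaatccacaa
Pdgfra, 67 kb upstream, chr5:75085184-75085418: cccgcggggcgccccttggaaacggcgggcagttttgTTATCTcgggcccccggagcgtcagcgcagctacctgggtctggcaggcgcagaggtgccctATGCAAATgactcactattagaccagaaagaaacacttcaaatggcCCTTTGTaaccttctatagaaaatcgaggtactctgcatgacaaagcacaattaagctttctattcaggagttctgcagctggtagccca
Dab2, 254.7 kb upstream, chr15:6044940-6045174: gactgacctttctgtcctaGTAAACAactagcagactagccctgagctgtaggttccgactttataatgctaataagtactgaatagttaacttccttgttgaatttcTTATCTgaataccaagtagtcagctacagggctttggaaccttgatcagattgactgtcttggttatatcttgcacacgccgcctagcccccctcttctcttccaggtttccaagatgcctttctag
Hnf4a, 4.25 kb downstream, chr2:163510936-163511170: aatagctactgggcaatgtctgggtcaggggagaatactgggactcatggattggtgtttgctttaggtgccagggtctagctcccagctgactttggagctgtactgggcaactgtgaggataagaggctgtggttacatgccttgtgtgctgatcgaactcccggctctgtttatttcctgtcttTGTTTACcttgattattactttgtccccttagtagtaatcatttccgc

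Within each distance, the share of endoderm genes with a Nanog peak was near that of protein-coding genes at large. A peak lay within 100 kb of 5 of the 8 TSSs (Gata4, Sox7, Sox17, Pdgfra and Hnf4a), where 54.8% of all protein-coding genes had one. Within 50 kb it was 3 of 8 (Sox7, Sox17 and Hnf4a) against 35.2%, within 200 kb it was 6 of 8 against 74.7%, and within 5 kb it was Hnf4a alone against 6.25%. Sox7, Foxa2, Dab2 and Hnf4a, 4 of the 8, were the nearest protein-coding gene of at least 1 peak, as were 24.6% of all protein-coding genes. Sox7 and Hnf4a met both criteria, and Gata6 met neither. The distance limit fell between Gata4, whose closest peak was 93.7 kb away, and Foxa2, at 140.5 kb.

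The distance from TSS to closest peak had a median of 80.3 kb over the 8 genes and of 85.3 kb over all protein-coding genes, whose quartiles were 30.7 and 202.6 kb. In order of distance the genes were Hnf4a (4.25 kb), Sox7 (6.96 kb), Sox17 (49.3 kb), Pdgfra (67 kb), Gata4 (93.7 kb), Foxa2 (140.5 kb), Dab2 (254.7 kb) and Gata6 (435.0 kb). The first 4 were closer than the median gene. Hnf4a and Sox7 were closer to a peak than most genes, since 94.6% and 92% of protein-coding genes had their closest peak as far away or farther, and for Dab2 and Gata6 these shares were 19.1% and 10.1%. Without replicates, it is not known how far this order would vary between samples.

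**Figure D1:**
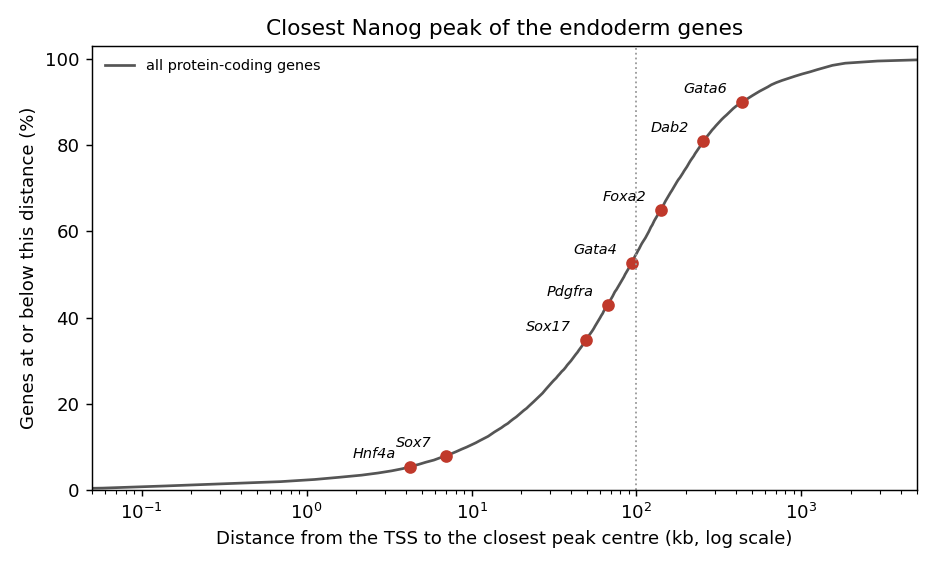
Distance from each TSS to the closest Nanog peak centre (kb, log scale) against the percentage of the 21755 protein-coding genes at or below that distance. The line is all protein-coding genes, the points are the 8 endoderm genes and the dotted line is 100 kb. The points run from 4.25 kb (Hnf4a) to 435.0 kb (Gata6), with 5 to the left of the dotted line.

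The 2 GATA factors, zinc-finger proteins that bind the letters GATA and drive the endoderm programme, differed in the peaks around them, with 0 within 100 kb for Gata6 and 1 for Gata4, where the median protein-coding gene had 1. Gata6 (ENSMUSG00000005836.10, chromosome 18, 11052064 to 11085635, plus strand), the factor set against Nanog in the inner cell mass, had no peak within 200 kb. Its closest peak, from 11486907 to 11487188, was 282 bp wide and lay 434983 bp downstream between genes, nearer to Rbbp8. Upstream the closest was at -590.8 kb. The stretch of genome to which Gata6 is the nearest protein-coding TSS spans 453.9 kb, a length reached by 5.27% of protein-coding genes, and held no peak. Gata4 (ENSMUSG00000021944.15, chromosome 14, 63198922 to 63271692, minus strand) had its peak from 63177895 to 63178129. It lay 93.7 kb downstream of the TSS, past the end of the gene. Its centre was in an untranslated region of Fdft1, which encodes squalene synthase, 1566 bp from the Fdft1 TSS, and at 235 bp it had the smallest width in the list. Measured from the closest of all annotated Gata4 transcript starts, the peak was 35.6 kb away. The closest peak upstream of Gata4 was 228.8 kb away.

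The pair of SoxF factors, HMG-box proteins of endoderm and vascular endothelium, each had peaks within 50 kb. Sox7 (ENSMUSG00000063060.6, chromosome 14, 63943673 to 63950732, plus strand) had a peak from 63936524 to 63936892, 369 bp wide and 6965 bp upstream of its TSS. The peak was intergenic and Sox7 was its nearest gene of any annotated kind, which held for no other peak of the 8 genes. The next peak on the other side of Sox7 was 226.5 kb downstream. Sox17 (ENSMUSG00000025902.13, chromosome 1, 4490931 to 4497354, minus strand) had 2 peaks on its downstream side, at 49.3 kb (4447885 to 4448179, 295 bp) and 74.9 kb (4422385 to 4422619, 235 bp). These peaks were 25.3 kb apart and both were nearer to the TSS of Rp1, a gene of photoreceptor microtubules, at 38.8 and 13.3 kb. The closest peak upstream of Sox17 was 305.4 kb away.

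Of the 2 hepatic and foregut regulators, Hnf4a had the peak closest to a TSS. Hnf4a (ENSMUSG00000017950.16, chromosome 2, 163506808 to 163572910, plus strand), a nuclear receptor of visceral endoderm and liver, had 1 peak, from 163510890 to 163511216, 327 bp wide and 4245 bp downstream of its TSS. The peak lay in an intron of Hnf4a, where the antisense gene Hnf4aos overlaps, and the small nuclear RNA gene Gm25881 had a TSS nearer to it, at 3.46 kb. Hnf4a has 5 annotated transcript starts, and the others were 35.8 to 39 kb from the peak. Foxa2 (ENSMUSG00000037025.11, chromosome 2, 148042877 to 148046969, minus strand), a forkhead factor of definitive endoderm, node and notochord, was the nearest protein-coding gene of 2 intergenic peaks, a count reached by 8.66% of protein-coding genes. They lay 140.5 kb (147906250 to 147906699, 450 bp) and 141.3 kb (147905523 to 147905762, 240 bp) downstream, 487 bp apart. No other protein-coding TSS lay within 100 kb of the Foxa2 TSS. The stretch to which Foxa2 is nearest spans 516.7 kb, which 4.42% of protein-coding genes match or exceed. The closest peak upstream was at -651.8 kb. The 450-bp peak was the widest of the 11 and ranked 1197 of 8735 by width.

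Pdgfra and Dab2, a surface receptor and an endocytic adaptor, both had peaks on the upstream side at long range. Pdgfra (ENSMUSG00000029231.15, chromosome 5, 75152292 to 75198215, plus strand), the receptor for PDGF, had a 371-bp peak at 67 kb upstream (75085116 to 75085486), which was closer to the TSS of Gsx2, a homeobox gene of the forebrain, at 9.7 kb. Farther upstream were peaks at 139.0 and 199.2 kb, both nearest to Chic2, and downstream the closest were at 272.4 and 285.8 kb, both nearest to Kit, a receptor of the same family. With 8 peaks within 500 kb, Pdgfra had the most of the 8 genes, and Gata6 with 1 had the fewest. Dab2 (ENSMUSG00000022150.16, chromosome 15, 6299788 to 6440712, plus strand), which links cargo receptors to clathrin in primitive and visceral endoderm, was the nearest protein-coding gene of 3 peaks, a count reached by 3.38% of protein-coding genes. All 3 were intergenic and upstream, at 254.7 kb (6044936 to 6045179, 244 bp), 307.5 kb (5992080 to 5992472, 393 bp) and 403.9 kb (5895786 to 5896050, 265 bp). Dab2 is nearest to a stretch of 600.6 kb, which 3.73% of protein-coding genes match or exceed, and noncoding genes or pseudogenes were nearer to each of the 3 peaks.

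**Figure D2:**
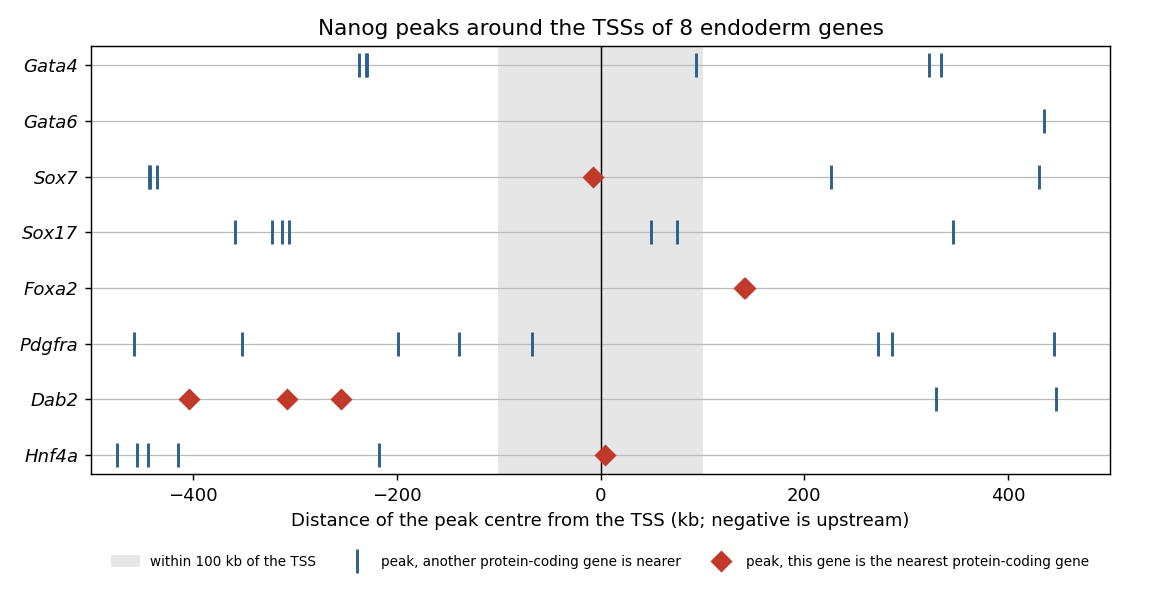
Nanog peaks around the TSS of each endoderm gene, one line per gene, by distance of the peak centre from the TSS in kb (negative is upstream). Diamonds are peaks whose nearest protein-coding gene is the gene on that line, ticks are peaks nearer to another gene and shading marks 100 kb each side; the 2 diamonds of Foxa2 overlap at this scale. Shading holds peaks of 5 genes, the 3 Dab2 diamonds lie 254.7 to 403.9 kb upstream, and the Gata6 line has 1 tick at 435.0 kb.

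Counted over length, the windows of 100 kb on each side of the 8 TSSs held 6 peaks in 1.6 Mb, a density of 3.75 peaks per Mb (exact 95% Poisson interval 1.38 to 8.16, for counting error only). The same windows around all protein-coding genes held 5 per Mb, which is inside that interval. In the stretches to which the 8 genes are nearest there were 7 peaks in 2.24 Mb, or 3.13 per Mb (1.26 to 6.44), against 3.46 over all protein-coding genes. No difference in density was tested, and the intervals treat the peaks as independent of each other.

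The 11 peaks lay mostly between genes. By the annotation at their centre 9 were intergenic, as were 46.3% of all peaks, 1 was in an intron (Hnf4a) and 1 in an untranslated region (the Gata4 peak at Fdft1). The 5 Foxa2 and Dab2 peaks, all intergenic, were taken only by the nearest-gene rule. They lay in stretches of 516.7 and 600.6 kb without a nearer protein-coding TSS. The share over all peaks has no such choice of peaks, so it is not a like comparison. No peak centre lay closer than 4.25 kb to the TSS of any of the 8 genes, and 6.25% of all protein-coding genes had one within 5 kb. Widths ran from 235 to 450 bp with a median of 295 bp against 319 bp for all peaks, and 5 of the 11 reached that median (Sox7, Foxa2 at 140.5 kb, Pdgfra, Dab2 at 307.5 kb and Hnf4a), where 50.2% of all peaks do. The GC content of the central 235 bp ran from 36.2% (Sox17 at 49.3 kb) to 61.7% (Gata4), with a median of 47.7%, the same as for all peaks.

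Consensus motifs were then read in the central 235 bp, on both strands. Copies of AGATAA, a form of the letters bound by GATA factors, occurred in 6 of the 11 peaks and in 12.5% of all peaks. The 6 were Sox7, both Sox17 peaks, Foxa2 at 141.3 kb, Pdgfra and Dab2 at 254.7 kb. No other form of the GATA letters was searched. TGTTTAC, the forkhead consensus, occurred in 3 (Foxa2 at 140.5 kb, Dab2 at 254.7 kb and Hnf4a) and in 4.57% of all peaks. Of these peaks, Sox17 at 49.3 kb and Dab2 at 254.7 kb were 60.7% and 52.5% repeat sequence. They had 12 and 8 similar peaks elsewhere in the list. No difference in motif shares was tested. The GATA copy closest to a peak centre was at -7 bp (Dab2) and the farthest at 94 bp (Sox17 at 49.3 kb). The forkhead copies were at 67, -95 and 73 bp, with negative positions on the side of lower coordinates. In the central 100 bp alone, 2 peaks held a GATA match and none a forkhead match. The shares of all peaks in this shorter window were not computed, so these counts have no comparison.

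Among the motifs of pluripotency factors, the Sox consensus (CCATTGT or CCTTTGT) was found in 5 of the 11 peaks (Gata4, Sox7, Foxa2 at 140.5 kb, Pdgfra and Dab2 at 403.9 kb) and in 23.7% of all peaks. It lay within 31 bp of the centre in 4 of them, at 16 bp in the Sox7 peak and at 13 bp in the Foxa2 peak. The Nanog core, CCATTA, was in 2 peaks (Sox17 at 49.3 kb, 13 bp from the centre, and Foxa2 at 141.3 kb) against 13.2% of all peaks. The Oct octamer ATGCAAAT was in the Pdgfra peak alone, at -15 bp with a Sox match at 31 bp, against 4.53%. Of the other motifs, the Tead consensus GGAATG was in 1 peak (Sox17 at 74.9 kb; 18.8% of all). None of the 11 held the Oct4-Sox2 composite (1.19% of all, up to 2 mismatches), the longer Nanog consensus GCCATTAA (1.44%), the Esrrb consensus TCAAGGTCA (2.63%) or a Klf consensus, written as GCCACACCC, GCCACGCCC, GCCCCACCC or GCCCCGCCC (7.13%). The core is contained in the longer Nanog consensus, the octamer lies within the composite, and the Sox letters overlap it. At least 1 motif was present in 10 of the 11 peaks and in 61.6% of all peaks, with Dab2 at 307.5 kb as the exception. A match is a description of the letters, and the binding of Oct4, Sox2, GATA or forkhead factors was not measured here.

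**Figure D3:**
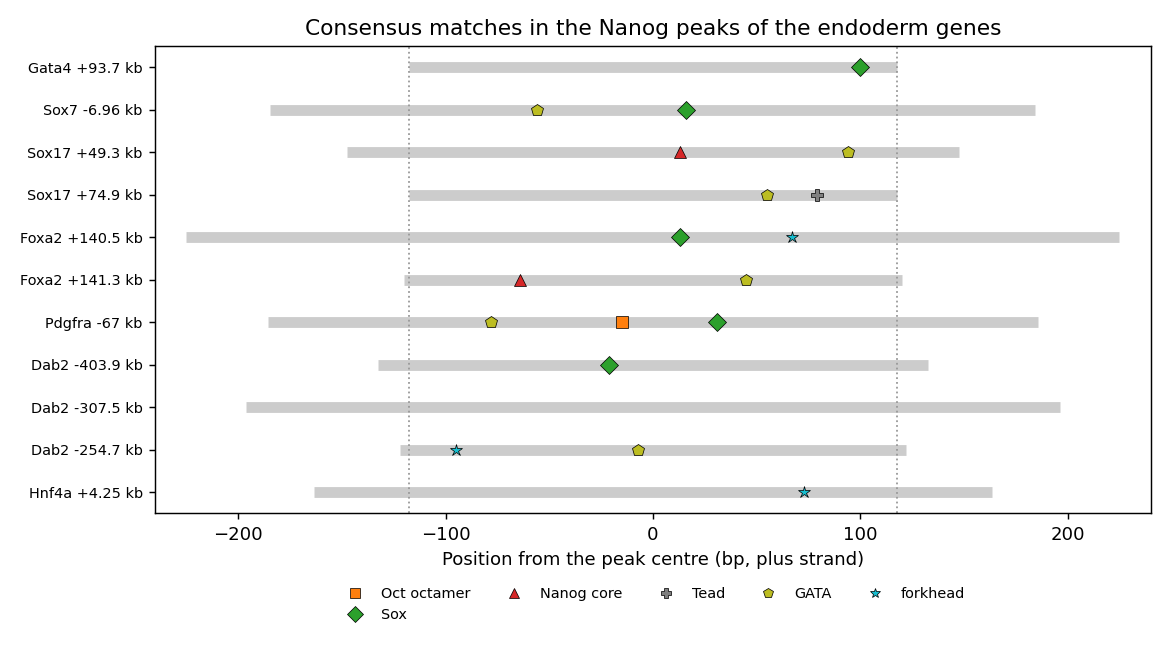
Consensus matches in the 11 Nanog peaks of the endoderm genes, by position from the peak centre in bp on the plus strand. Bars are the peaks, symbols are motif matches and dotted lines bound the 235 bp searched. GATA symbols appear in 6 peaks, forkhead symbols in 3 and Sox symbols in 5, and the Dab2 peak at 307.5 kb has none.

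The peaks of Dab2 and the closer peak of Sox17 were mostly repeat sequence by length, although the base at each of their centres was unmasked. Repeat sequence, soft-masked in short blocks in the RefSeq assembly, made up 78.5%, 55.5% and 52.5% of the Dab2 peaks at 403.9, 307.5 and 254.7 kb and 60.7% of the Sox17 peak at 49.3 kb, and 14.8% of all peaks exceeded 50%. Foxa2 at 141.3 kb followed with 35.4% and was the 1 peak of the 11 with a masked base at its centre, as in 20.4% of all peaks, and the others held 0% to 6.78%. Aligned with all peaks in the list, the same 4 peaks had counterparts elsewhere (at least 100 bp aligned, E at most 1e-10), as had 24.6% of all peaks: 229, 86 and 8 other peaks for the Dab2 peaks in the order above, and 12 for the Sox17 peak. Dab2 at 403.9 kb and at 307.5 kb also aligned to each other, on opposite strands, with 148 identical bases over 215 aligned columns (68.8%). The aligned part of the second peak is 171 bp long. The columns without a base in it are gaps, which count in the 68.8% and are not printed. Reads from similar copies may map to more than 1 place. Whether this happened here was not tested, because no reads were used. The study's methods name a filter on low-quality reads without its threshold. The aligned parts are printed below because they show how alike these peaks are, with identical bases in capitals, the first on the plus and the second on the minus strand. This comparison was added after the sequences had been seen.
Dab2, 403.9 kb upstream, chr15:5895787-5896001: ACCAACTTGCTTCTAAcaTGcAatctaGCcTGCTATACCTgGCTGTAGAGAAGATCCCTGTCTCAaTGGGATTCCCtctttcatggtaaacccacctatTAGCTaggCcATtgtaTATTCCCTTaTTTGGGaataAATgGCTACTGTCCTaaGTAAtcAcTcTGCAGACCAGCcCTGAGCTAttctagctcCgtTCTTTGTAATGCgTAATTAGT
Dab2, 307.5 kb upstream, chr15:5992146-5992316: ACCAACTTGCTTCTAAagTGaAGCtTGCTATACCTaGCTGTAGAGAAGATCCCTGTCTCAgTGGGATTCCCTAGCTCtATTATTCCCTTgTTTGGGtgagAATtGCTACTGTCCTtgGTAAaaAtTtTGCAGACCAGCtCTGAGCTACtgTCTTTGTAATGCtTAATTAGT

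The wider endoderm programme was read from 30 further genes. A peak lay within 100 kb of 17 of them, within 50 kb of 9, within 200 kb of 22 and within 5 kb of 3, and 8 were the nearest protein-coding gene of a peak, against the same shares over all protein-coding genes as above. Their closest peaks had a median distance of 88.8 kb and ran from 1.55 to 323.6 kb. By role, peaks within 100 kb were found at 6 of 10 further transcription factors, 4 of 8 basement membrane genes, 3 of 6 receptors and uptake genes, and 4 of 6 secreted proteins. The 3 genes with a peak within 10 kb encode matrix and membrane proteins of extraembryonic endoderm. Pth1r, the receptor for parathyroid hormone-related protein and a parietal endoderm marker, had an intronic peak 1.55 kb downstream of its TSS (chr9:110745440-110745752). The gene Myl3 also overlaps this peak. Lrp2 (megalin, an uptake receptor) had one in an intron 2.92 kb downstream (chr2:69583016-69583268), and Lama1, the laminin chain of embryonic basement membranes, had one 3.19 kb upstream (chr17:67693916-67694228).

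No peak within 100 kb was found for 13 of the 30. Among transcription factors these included Foxa3 (closest peak at 138.7 kb), Lhx1 (248.4 kb) and Foxa1 (320.5 kb). The basement membrane genes among them were Lamb1 (172.4 kb), Nid1 (209.9 kb), and Col4a1 and Col4a2, a head-to-head pair with the same closest peak at 323.6 kb. The uptake genes Cubn (121.0 kb) and Amn (127.9 kb), whose products form the cubilin receptor complex, were also without one, as were the surface sialomucin Podxl (321.1 kb), the secreted antagonist Cer1 (119.2 kb) and the serum protein gene Afp (243.6 kb).

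Lists for other lineages gave the frame for these counts, and the differences between lists were not tested. Of 17 genes that the study named as pluripotency regulators or other reprogramming factors and cofactors, 15 had a peak within 100 kb. They had 52 peaks in sum over the genes and a median closest distance of 9.48 kb. However, these 17 were examples picked from genes bound by reprogramming factors in ESCs. Among 8 genes each, those with a peak within 100 kb were 7 for primitive streak and mesoderm (median closest distance 52.4 kb), 7 for trophectoderm (18.5 kb) and 5 for neuroectoderm (20.6 kb). The 8 endoderm genes had 5 at 80.3 kb, with 6 peaks in sum where the other 3 lists had 12, 13 and 17. Over all protein-coding genes, 54.8% had a peak within 100 kb and the median closest distance was 85.3 kb. Their mean was 1 peak within 100 kb per gene. The median number of peaks per gene was 1 for endoderm, for primitive streak and mesoderm and for trophectoderm. It was 1.5 for neuroectoderm and 1 over all protein-coding genes. Eomes, Mixl1 and Gsc stand in more than 1 list.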

How the data were processed

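Nanog ChIP-seq was performed in 1 sample of Bruce-4 ESCs, with 1 input. Per the study's methods and the submitters' notes, the authors checked reads with FastQC, aligned them to mm10 with Bowtie2, filtered them with BEDtools and SAMtools and called peaks with MACS2. The call's threshold and its control are not given in the sources used here. The list used here, deposited by the authors, gives peak positions (chromosome, start, end) with no strength, count or p-value, so weak sites below the threshold cannot be told from absence of binding, and removal of low-quality reads can hide sites in repeats.

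Of 8860 lines, 123 repeated an interval, leaving 8737 distinct peaks (8735 outside unplaced scaffolds). Distances ran from the peak centre to the 5′ end of a gene (GENCODE vM21, GRCm38 sequence, the assembly of mm10). Motifs were exact except the composite (up to 2 mismatches). Similar peaks were sought with blastn 2.17.0, and other steps used Python 3.11.15 with numpy 2.4.6, scipy 1.17.1 and pysam 0.24.0. Counting steps were tested on simulated data with planted peaks and motifs. All 8 genes and their peaks are named, with the further genes that had a peak within 10 kb or none within 100 kb. Not every such gene is reported here by name. Other lists are given as counts. The genes and lists were chosen with earlier results of these data known.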

Additional observations from a re-analysis of the deposited data

How the results depend on the processing

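Restricting the list to peaks at or above the median width left 3 endoderm genes with a peak within 100 kb (of 5), 3 peaks there (of 6) and 4 peaks with an endoderm gene as nearest (of 7), and moved the median closest distance from 80.3 to 184.7 kb. This restriction kept 50.2% of all peaks, and the same values over all protein-coding genes were not computed for it. With a limit of 50 kb, 3 genes, 3 peaks and 9 of the further genes remained, and with 200 kb there were 10 peaks. When all annotated genes competed, 1 gene (Sox7) was nearest to 1 peak, and with the nearest gene limited to 100 kb, 2 genes (Sox7 and Hnf4a) were nearest to 2 peaks. Shares over all protein-coding genes were 35.2% within 50 kb and 74.7% within 200 kb, and they were not computed for the 2 nearest-gene rules. Counting all lines of the list, taking every transcript start, measuring from peak edges or merging peaks within 300 bp left these counts the same; the median closest distance became 56.3 kb with every transcript start. Tead matches numbered 3 over whole peaks and 0 in the central 100 bp, and shares of all peaks were not computed for these windows. Asking for 150 bp of alignment, a choice added after the data were seen, left 4 peaks with similar ones. The list shows no read depth, so none of these counts can be set against it. No paired analysis was possible because the list comes from 1 sample.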

Other observations

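Gata4 and Sox7 lie 672.0 kb apart on chromosome 14 with their 5′ ends facing each other, and beside the Sox7 peak described above 3 Nanog peaks lie between them, at 228.8, 230.3 and 237.2 kb from the Gata4 TSS and at 443.1, 441.7 and 434.8 kb from that of Sox7. These 3 had Tdh as their nearest protein-coding gene, the threonine dehydrogenase that is highly expressed in mouse ESCs, at 8.56, 7.12 and 0.171 kb from its TSS.

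Around Sox17, 4 peaks lay 305.4 to 358.3 kb upstream, and their nearest protein-coding genes were Lypla1 (1 peak, 5.05 kb), Gm37988 (2 peaks, 2.4 and 11.8 kb) and Tcea1 (1 peak, 2.11 kb). Downstream of Dab2, the 2 closest peaks were nearest to Rictor, a subunit of an mTOR complex, at 79.4 and 38.4 kb.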
